A study of Mus musculus with 4 samples.

Results

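The axoneme is the microtubule core of a motile cilium or flagellum. Outer and inner dynein arms, motor complexes built on dynein heavy chains, sit on its outer microtubule doublets, radial spokes join the doublets to a central pair, and tektins and many of the cilia and flagella associated proteins (Cfap) lie in or on the doublets. In the lung such cilia are borne by ciliated cells of the airways, where their beat clears mucus, while most other lung cells can form at most a single non-motile primary cilium. The genes described here are the 56 rows, of 31055 in the count matrix, whose symbol begins with Dnah, Dnai, Cfap or Rsph followed by a digit, or is Dnali1 or Tekt with a single digit. They are 15 dynein heavy chain genes, Dnali1, 8 radial spoke genes, 5 tektins and 26 Cfap genes, plus Dnah2os, an antisense RNA that the same letters pick up. No row has Dnai followed by a digit, and the outer arm intermediate chains stand under their older symbols Dnaic1 and Dnaic2, given here only for context.

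Transcripts were counted by droplet 3′ RNA sequencing in lung cells sorted as negative for the leukocyte surface protein CD45 and the endothelial surface protein CD31. The mice were tamoxifen-dosed, about 8 weeks old and of the genotype Gli1-CreERT2/WT with Rosa26 mTmG/WT, so every cell came from animals with 1 copy of a tamoxifen-inducible Cre at Gli1, a hedgehog target gene, and 1 copy of a membrane reporter. The labels name different strains in different fields, and no strain is given here. All 4 samples carry the same labels and their reads form 1 matrix with 1 barcode suffix and no key from cell to sample, so the data count as 1 sample without replicates, no test was possible, and every interval below is a 95% interval of counting error only.

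After filtering, 8933 cells with 76127432 unique molecular identifiers (UMIs) remained, at a median of 7967 UMIs per cell, in 23 clusters that were formed without the axoneme genes. Of the clusters, 19 were named by marker lists into 11 classes, and 4 clusters with 363 cells stayed unnamed. The ciliated-like class was 1 cluster of 238 cells with a median of 11237.5 UMIs. All 12 ciliated markers, none of them an axoneme gene of this set, were detected there, among them Foxj1, the master transcription factor of motile cilia, at 514 CPM (counts per 1000000 of the UMIs summed over the class). The other classes with at least 50 cells were 9: adventitial fibroblast-like (3126 cells), alveolar fibroblast-like (2326), alveolar type 2-like (1655), peribronchial or myofibroblast-like (427), mesothelial-like (208), alveolar type 1-like (207), smooth muscle-like (179, a near tie with pericyte), leukocyte-like (91) and club or secretory-like (72). A proliferating-like class had 41 cells and its values are given separately. The median ciliated marker stood at 0.0355 to 0.252% of its ciliated-like level in the other named classes, but Sec14l3, also on that list, was at 1215 CPM in alveolar type 1-like cells, against 2468 CPM in ciliated-like cells.

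Axoneme transcripts were concentrated in ciliated-like cells. Of the 47692 UMIs of the 56 genes, 33909 lay in the 238 ciliated-like cells and 13783 in the 8695 others, and their summed level was 10155 CPM in ciliated-like cells, against 100 to 349 CPM in the other named classes. Of the 51 genes with at least 30 UMIs, called measured below, 50 were at least 2-fold higher in ciliated-like cells than over all other cells, where 20.5% of all 14865 measured features were. At 10-fold the count was 46 of 51 (5.79% of all features), at 100-fold it was 36 of 51 (2.35%), and no measured gene had a ratio of 0.5 or less (30.2%). The median ratio was 462 over the axoneme genes and 0.906 over all measured features, and the median share of a gene's UMIs that lay in ciliated-like cells was 95.5%, against 3.99%.

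To find axoneme genes outside ciliated cells, each gene's highest level in another named class, among classes of at least 50 cells with at least 10 of its UMIs, was set against its ciliated-like level. It was under 10% for 43 of 51 genes, called restricted (4.38% of all features), from 10 to 50% for 5, called intermediate (5.82%), and 50% or more for 3, called not confined (89.8%). For 26 of the 43 restricted genes no other such class held even 10 UMIs. That minimum limits the call for genes with low levels. In mesothelial-like cells 10 UMIs are 5.40 CPM, above 10% of the ciliated-like level of Cfap99 (6.89 CPM) or Tekt3 (10.2 CPM). For such genes the name restricted can mean too few UMIs to tell in small classes. The 3 genes not confined were Tekt5, Cfap97 and Dnah8, and the 5 intermediate ones Cfap43, Cfap36, Cfap20, Cfap57 and Tekt2. By this rule the genes nearest below the 10% line were Rsph9 (8.75%), Rsph3b (8.20%), Rsph3a (7.75%) and Tekt3 (7.49%). The nearest above it were Tekt2 (13.5%) and Cfap57 (13.98%), and the intervals of these 6 genes cross the line. For Rsph3a and Rsph3b too, classes with fewer than 10 UMIs were left out, so the name restricted does not cover those classes.

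**Figure D1:**
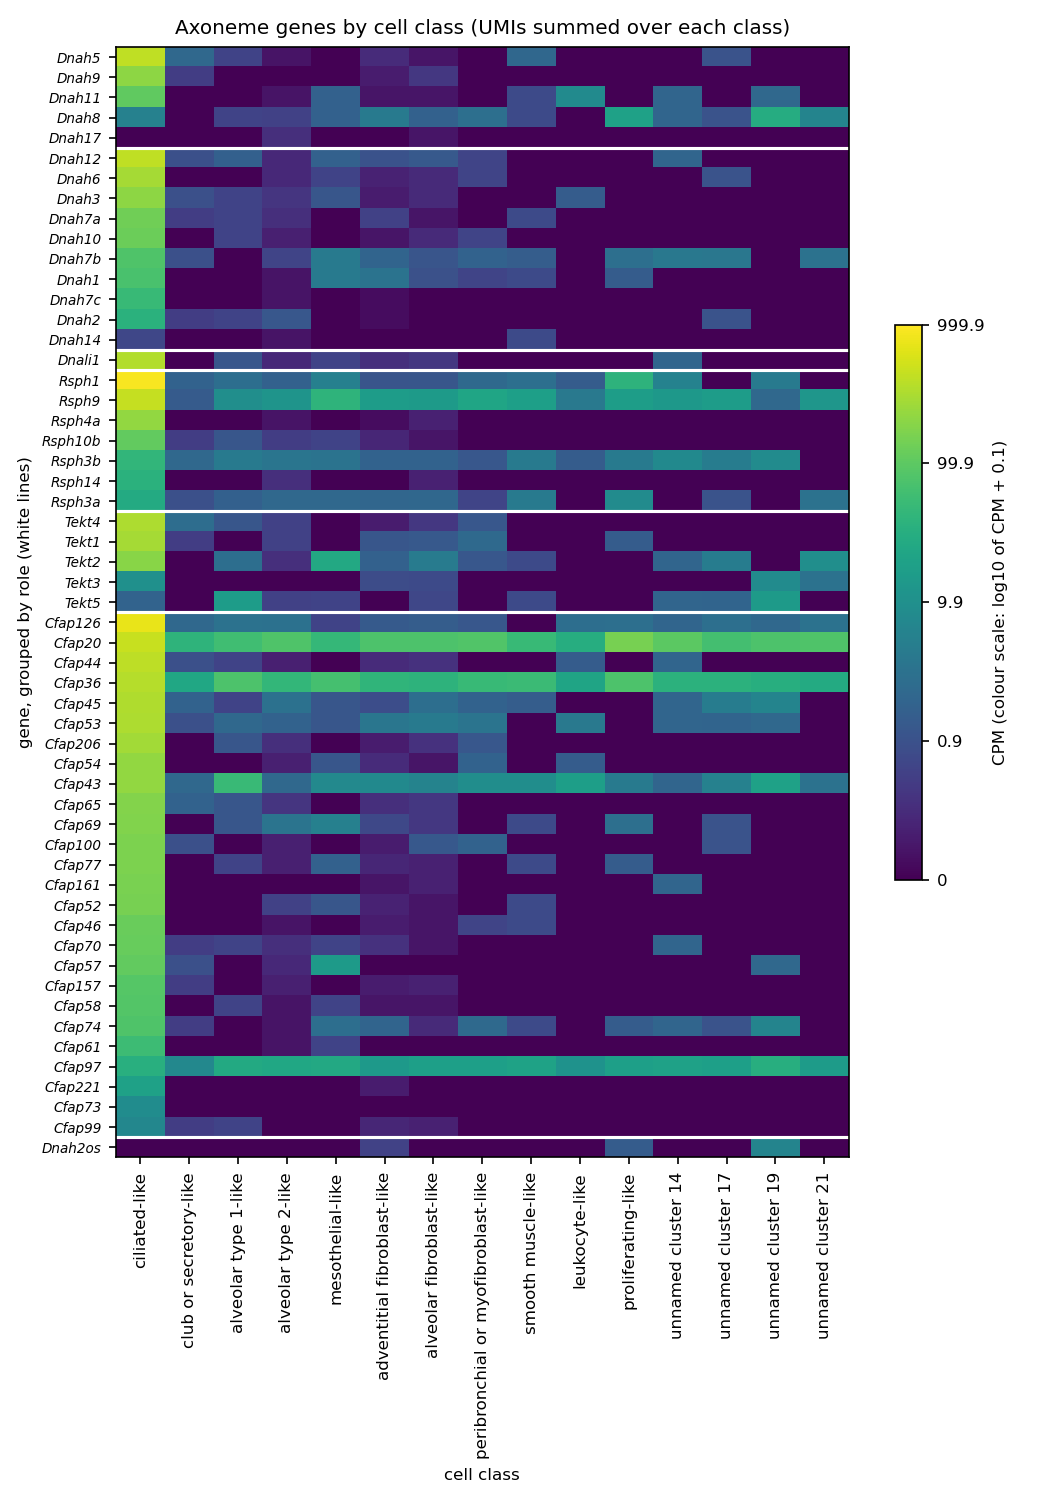
Level of each axoneme gene with at least 1 UMI (rows, grouped by role) in each cell class (columns), as CPM of UMIs summed over the class on a log colour scale. The ciliated-like column is bright for nearly all rows, while Cfap20, Cfap36 and Cfap97 are bright across the classes, Tekt5 and Cfap43 stand out in alveolar type 1-like cells and Cfap57 and Tekt2 in mesothelial-like cells.

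Among outer arm heavy chains, the motors that set beat frequency, Dnah5, Dnah9 and Dnah11 were restricted. Dnah5 (chromosome 15, 28203752 to 28472052, plus strand, build mm10), a frequently mutated gene in human primary ciliary dyskinesia, had 1377 UMIs in ciliated-like cells (412 CPM) and 18 in all others (0.247 CPM), a ratio of 1668 (1051 to 2822). Dnah9 was at 208 CPM against 0.124 CPM elsewhere (ratio 1678, 879 to 3686) and Dnah11 at 105 CPM against 0.220 CPM (480, 291 to 848). Of the 16 Dnah11 UMIs outside ciliated-like cells, 6 lay in 6 of the 91 leukocyte-like cells (8.15 CPM), below the 10 UMIs asked of a class. The remaining outer arm chains in mice are best known from sperm flagella: Dnah8 was not confined and is described below, and Dnah17 had 5 UMIs, none of them in ciliated-like cells.

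All 9 measured inner arm and other heavy chains were restricted, with a median ratio of 514. Dnah12 was at 409 CPM in ciliated-like cells against 0.797 CPM elsewhere (ratio 514, 395 to 680), Dnah6 at 288 CPM against 0.179 CPM (1611, 938 to 3037) and Dnah3 at 209 CPM against 0.234 CPM (896, 556 to 1547). The lowest ratio of the group was that of Dnah1, 44.5 (35.6 to 56.0), which had 93 UMIs in adventitial fibroblast-like cells. Its level there was 3.22 CPM, 5.67-fold that of all remaining cells outside the ciliated-like class (0.569 CPM, 3.61 to 9.20), though only 4.47% of the ciliated-like 72.2 CPM. Mesothelial-like cells were at 4.32 CPM (1.86 to 8.51) on 8 UMIs, too few for the 10 asked of a class. That interval contains the adventitial one (2.60 to 3.95), so which of the classes was higher cannot be told. Gm35823 overlaps Dnah1 on the opposite strand, and its part in the Dnah1 counts was not tested. Dnah2 had 18 of its 22 UMIs outside ciliated-like cells in alveolar type 2-like cells (1.12 CPM, against 35.9 CPM in ciliated-like cells). Dnah7a, Dnah7b and Dnah7c carry the names of related copies and lie on chromosome 1. How alike they are, and whether the counting split reads between them, was not tested, so their 450, 260 and 167 ciliated-like UMIs, and the 101 UMIs of Dnah7b elsewhere, are uncertain as values of single genes. Dnah14 had 4 UMIs in all.

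Dnali1, the light intermediate chain of inner arms, was restricted too, at 346 CPM in ciliated-like cells against 0.261 CPM elsewhere (ratio 1327, 846 to 2213). The outer arm intermediate chains outside the rule did the same: Dnaic1 was at 151 CPM against 0.165 CPM (ratio 914) and Dnaic2 at 174 CPM against 1.03 CPM (ratio 169).

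Radial spoke genes were all restricted among the 7 measured, with Rsph9, Rsph3b and Rsph3a close to the line. Rsph1, a spoke head gene on chromosome 17 (31255019 to 31277383, minus strand), had a UMI in each of the 238 ciliated-like cells and reached 902 CPM there, against 1.83 CPM elsewhere (ratio 494, 415 to 592). Rsph4a, another head gene, had 763 UMIs in ciliated-like cells and 4 in all other cells, and its ratio of 4158 (1617 to 15299) was the highest of the 51 measured genes. Rsph9, also of the head, had a ratio of 30.1 (27.8 to 32.6): 450 CPM in ciliated-like cells, 39.4 CPM in mesothelial-like cells (73 UMIs, 8.75%) and 1.28 to 22.0 CPM in the other 8 classes. Mrps18a overlaps Rsph9 on the opposite strand and was at 51.3 CPM in mesothelial-like cells and 59.0 CPM in ciliated-like cells. The part of Mrps18a in the Rsph9 counts was not tested. Rsph3a and Rsph3b are copies of a spoke stalk gene on chromosome 17. They were at 28.1 and 42.5 CPM in ciliated-like cells with 147 and 175 UMIs elsewhere, again uncertain singly. Rsph3b was called on its alveolar type 2-like level (3.49 CPM). Alveolar type 1-like cells were at 9.95% of its ciliated-like level (8 UMIs) and smooth muscle-like cells at 9.78% (6 UMIs). Unnamed clusters 14 and 19 were at 7.79 and 8.51 CPM on 4 UMIs each. All these counts are below the 10 UMIs asked of a class, and their intervals overlap the alveolar type 2-like one. Rsph3a was likewise called on its alveolar type 2-like level (7.75%). Smooth muscle-like cells were at 14.8% of its ciliated-like level (6 UMIs, 5.29 to 33.4%) and mesothelial-like cells at 7.67% (4 UMIs). Proliferating-like cells, too few for the rule, were at 29.3% (6 UMIs, 10.5 to 66.3%). Rsph1 also stood out in the 41 proliferating-like cells, at 38.5 CPM (28 UMIs in 14 cells, at most 6 in a cell), 26.4-fold the remaining cells outside the ciliated-like class (16.8 to 40.4). Of those 14 cells, 1 had a UMI of the 9 ciliated markers left after Sec14l3, Dynlrb2 and Mlf1, which other classes also express, were set aside. No UMI of Rsph6a was found.

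The tektins, filament proteins of the doublet wall, spanned all 3 categories. Tekt4 (327 CPM in ciliated-like cells against 0.357 CPM elsewhere, ratio 915) and Tekt1 (291 CPM against 0.865 CPM, ratio 336) were restricted. Tekt3 was restricted on 34 ciliated-like UMIs (10.2 CPM), with 22 UMIs in adventitial fibroblast-like cells (0.763 CPM). The unnamed cluster 19, outside the rule, was higher at 8.51 CPM on 4 UMIs, 83.6% of the ciliated-like level (21.5 to 234%). Tekt2 was intermediate and Tekt5 not confined.

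Among Cfap genes 20 of 25 measured were restricted, 4 intermediate and 1 not confined, with a median ratio of 472. Cfap126, also known as Flattop, a gene of basal body docking and positioning, had 2492 UMIs in ciliated-like cells (746 CPM, ratio 421, 353 to 507). Cfap44, whose product ties inner arm dynein to the doublet in protists, was at 402 CPM against 0.234 CPM elsewhere (ratio 1722, 1071 to 2965). Cfap161 had the highest ratio of the 25 measured Cfap genes, 2302 (980 to 7118), with 528 UMIs in ciliated-like cells and 5 elsewhere. At the other end of the restricted Cfap genes, Cfap99 (23 ciliated-like UMIs, ratio 55.7, 24.8 to 137) and Cfap74 (ratio 76.7, 59.2 to 101) had the lowest ratios. Cfap74 had 54 UMIs in adventitial fibroblast-like cells (1.87 CPM), 3.92-fold the remaining cells outside the ciliated-like class (2.33 to 6.83). Its mesothelial-like level was 2.70 CPM on 5 UMIs and its peribronchial or myofibroblast-like level 2.26 CPM on 4 UMIs, and the intervals of both overlap that of the adventitial level. Cfap69 was at 5.40 CPM in mesothelial-like cells (10 UMIs) and 3.36 CPM in alveolar type 2-like cells (54 UMIs), against 173 CPM in ciliated-like cells. Cfap73, at 29 UMIs just under the minimum, had all of them in ciliated-like cells.

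Within the ciliated-like class the restricted genes were found together in nearly every cell. Summed over the 43 genes, a ciliated-like cell had 7 to 369 UMIs with a median of 110.5, from 5 to 41 of the genes with a median of 32, and 237 of 238 cells had at least 10 UMIs. Each gene had a UMI in 8.82 to 100% of the 238 cells, and 34 of the 43 genes were seen in at least 50% of them. No share over all features is set beside these counts. The level in ciliated-like cells also entered the rule that chose the 43 genes, so the counts are a description only. Outside the class, 6 of 8695 cells reached 10 UMIs, the highest single cell had 13, and 73.2% had none. As a whole the other cells had 2950 UMIs of these genes (40.5 CPM, against 8761 CPM in ciliated-like cells), and the median restricted gene stood at 0 to 0.206% of its ciliated-like level in the other classes. The 10% line by which these genes were chosen holds that level low, so it is a description and no background for the genes above the line. Where these scattered UMIs came from was not tested.

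**Figure D2:**
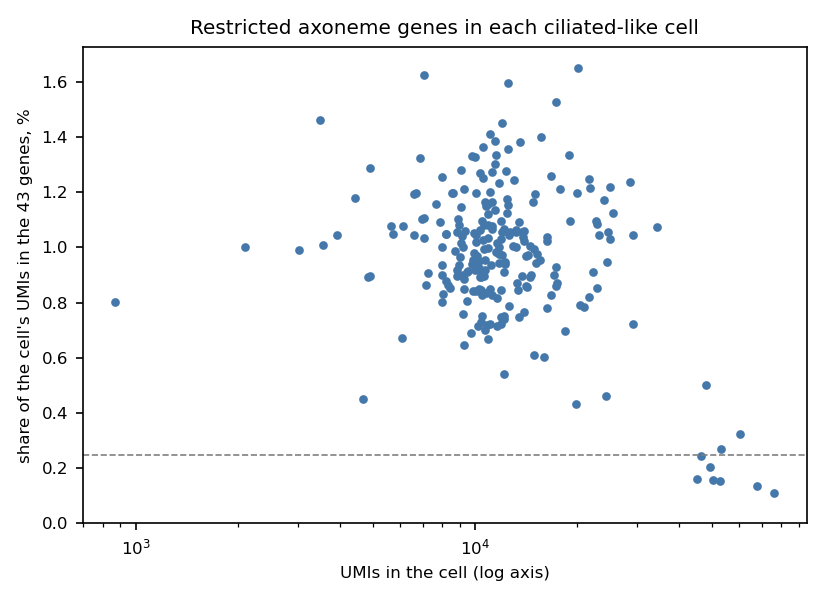
Share of each ciliated-like cell's UMIs that came from the 43 restricted axoneme genes (y axis, percent) against the UMIs of the cell (x axis, log scale), 1 point per cell, with a dashed line at 0.25 of the median share of 0.994%. Most cells scatter around the median, and the 7 cells below the line all have at least 44991 UMIs.

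A small group of ciliated-like cells had a low axoneme share. In 7 cells the 43 genes gave 0.110 to 0.242% of UMIs, against a median of 1.001% in the remaining 231. These 7 cells had a median of 50156 UMIs, against 11086 in the remaining 231, and each had a Foxj1 UMI. They also had a median of 26863 UMIs of Scgb1a1, the club cell secretory protein gene, against 20 in the others. Whether they are doublets that the caller missed was not tested.

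Tekt5 alone among the 51 measured genes had a higher level in another named class of at least 50 cells than in ciliated-like cells at the settings used here, which Dnah8 joined under 3 alternatives given with its values. Tekt5 (chromosome 16, 10357948 to 10395490, minus strand), a tektin known from mouse sperm flagella, had 31 UMIs in 26 of 207 alveolar type 1-like cells (16.4 CPM, 11.1 to 23.3), the thin cells of gas exchange, and 6 UMIs in 5 of 238 ciliated-like cells (1.80 CPM, 0.659 to 3.91). The alveolar type 1-like level was 9.13-fold the ciliated-like level (3.75 to 26.8) and 40.1-fold that of all remaining cells outside the ciliated-like class (23.4 to 68.9). Adventitial fibroblast-like cells had 0 UMIs in 3126 cells, which allows at most 0.128 CPM, and alveolar type 2-like cells had 8 UMIs (0.498 CPM). After each cell was thinned to 2000 UMIs, 3.28% of alveolar type 1-like cells had a Tekt5 UMI (6 of 183, 1.21 to 6.999%), against 0.422% of ciliated-like cells (1 of 237), 0.121% of alveolar type 2-like cells (2 of 1647) and 0 of 3115 adventitial fibroblast-like cells. Before thinning the shares were 12.6%, 2.10%, 0.483% and 0%, at medians of 7918, 11237.5, 9428 and 8946 UMIs. Of the 26 alveolar type 1-like cells with a Tekt5 UMI, 1 also had a UMI of the 9 ciliated markers. The unnamed cluster 19, 66 cells led by haemoglobin and endothelial genes, was the other place with a comparable level, 14.9 CPM on 7 UMIs (5.99 to 30.7). The UMIs were also parted at random into 2 sets, 1 for clustering and 1 for counting. Tekt5 then fell below the 30 UMIs asked of a measured gene. Its ratio of alveolar type 1-like over ciliated-like cells was 30.6 there. Tekt5 had 6 ciliated-like UMIs before this parting, so the 30.6 rests on few UMIs and is given without an interval.

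**Figure D3:**
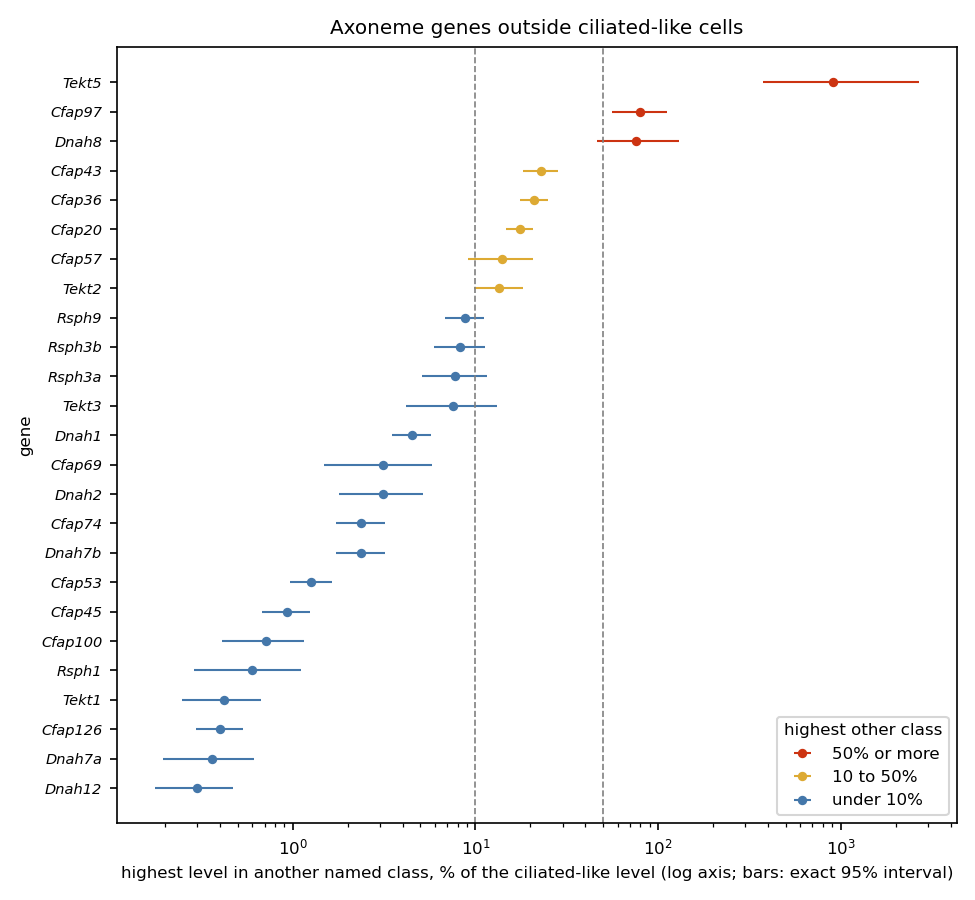
Highest level of each measured axoneme gene in another named class, as percent of its ciliated-like level (x axis, log scale), for the 25 genes with at least 10 UMIs in such a class, with exact 95% intervals of counting error and dashed lines at 10 and 50%. Tekt5 lies to the right of all others, Cfap97 and Dnah8 beyond the 50% line, 5 genes lie between the lines, and the restricted genes trail off to below 1%.

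Cfap97 was present in all 11 named classes. On chromosome 8 (46151771 to 46195590, plus strand), it reached 26.4 CPM in alveolar type 1-like cells (19.6 to 34.9), 0.796 of the ciliated-like 33.2 CPM (0.558 to 1.12), and 7.28 CPM in club or secretory-like to 25.9 CPM in mesothelial-like cells in the other classes. Cfap97 had the lowest ratio of ciliated-like over all other cells of the measured genes, 1.84 (1.499 to 2.23), and 111 of its UMIs lay in ciliated-like cells and 1318 outside. The gene overlaps Snx25 on the opposite strand. Snx25 was at 147 CPM in alveolar type 2-like cells and 20.7 CPM in ciliated-like cells, and Cfap97 at 23.7 and 33.2 CPM in the same classes. The part of Snx25 in the Cfap97 counts was not tested.

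Dnah8 had few UMIs, and its levels in adventitial fibroblast-like and ciliated-like cells differed by less than counting error. Dnah8 (chromosome 17, 30624354 to 30877365, plus strand) had 124 UMIs in 114 of 3126 adventitial fibroblast-like cells (4.30 CPM, 3.58 to 5.13), against 19 UMIs in 16 of 238 ciliated-like cells (5.69 CPM, 3.43 to 8.89), 0.756 of that level (0.464 to 1.30). The adventitial level was 2.55-fold that of all remaining cells outside the ciliated-like class (1.90 to 3.45). Within the adventitial class, cluster 6 was highest at 6.99 CPM (5.01 to 9.48) and cluster 4 lowest at 2.13 CPM (1.17 to 3.58), and these intervals do not overlap. Clusters 9, 3 and 7 lay between these extremes at 2.96, 3.96 and 5.51 CPM, and the pair was picked after the values were seen. Cluster 6 itself was nearly tied between the adventitial and alveolar fibroblast lists (mean marker z-scores of 0.495 and 0.330). Higher levels stood in 2 small groups outside the rule. Cluster 19 had 29.8 CPM (14 UMIs in 11 of 66 cells, 16.3 to 49.97), 11.7-fold the remaining cells outside the ciliated-like class (6.28 to 20.1), and proliferating-like cells had 19.3 CPM, where 9 of the 14 UMIs came from a single cell. The highest other named class was above the ciliated-like level at clustering resolution 2.0 (2.85-fold) and with doublets kept (3.14-fold), when the proliferating-like class passed 50 cells, and with the looser filter on cells (5.70-fold), when an endothelial-like class did. Alveolar type 2-like cells had 0.498 CPM and club or secretory-like and leukocyte-like cells 0 UMIs. Glo1 overlaps Dnah8 on the opposite strand and was at 125 CPM in adventitial fibroblast-like, 126 CPM in cluster 19 and 152 CPM in ciliated-like cells. Another opposite-strand gene, 1700097N02Rik, also overlaps Dnah8, and its levels were not examined. The part of either gene in the Dnah8 counts was not tested.

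Among the intermediate genes, Cfap20 and Cfap36 had at least 20 CPM in each class of at least 50 cells, and Cfap43, Cfap57 and Tekt2 varied more between the other classes. Cfap20 (chromosome 8, 95420249 to 95434869, minus strand), an inner junction protein of doublets known from algae and protists, was at 462 CPM in ciliated-like cells and at 31.2 to 80.8 CPM in the 9 other classes, highest in peribronchial or myofibroblast-like cells (143 UMIs, 17.5%). In proliferating-like cells it was at 149 CPM (122 to 179), 2.04-fold the remaining cells outside the ciliated-like class (1.67 to 2.46). Cfap36 (chromosome 11, 29221532 to 29247409, minus strand) was at 358 CPM in ciliated-like cells and at 21.7 to 75.1 CPM in the 9 others, highest in alveolar type 1-like cells (142 UMIs, 21.0%). Outside the ciliated-like class, the alveolar type 1-like level was 1.78-fold that of the remaining cells (1.497 to 2.11). Both were 6.27-fold (Cfap20) and 8.32-fold (Cfap36) higher in ciliated-like cells than in all others, while 22.3% and 27.6% of their UMIs lay in ciliated-like cells.

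Cfap43 had alveolar type 1-like cells as its next class by summed UMIs. Cfap43 (chromosome 19, 47736857 to 47919287, minus strand), a partner of Cfap44 in the same dynein tether, had 97 UMIs in 70 of 207 alveolar type 1-like cells (51.3 CPM, 41.6 to 62.6), against 225 CPM in ciliated-like cells (209 to 242), 22.8% of that level (18.2 to 28.2%). The remaining classes of at least 50 cells were at 2.12 to 17.7 CPM, and the alveolar type 1-like level was 8.52-fold that of all remaining cells outside the ciliated-like class (6.76 to 10.6). After thinning, 7.65% of alveolar type 1-like cells (4.25 to 12.5%) and 37.6% of ciliated-like cells (31.4 to 44.1%) had a Cfap43 UMI, against 0.486% of alveolar type 2-like cells. Cluster 19 had 5.66% (3 of 53, 1.18 to 15.7%), an interval that overlaps the alveolar type 1-like one, and a summed level of 19.1 CPM (8.75 to 36.3). Cfap44, the partner of Cfap43, had 1 UMI in alveolar type 1-like cells, against 1343 in ciliated-like cells. Of the 207 alveolar type 1-like cells, 10 had a UMI of the 9 ciliated markers, and 8 of these 10 were among the 70 with Cfap43. Where other-class cells with at least 2 UMIs of all 12 ciliated markers were left out, which removed 1169 cells and most of the alveolar type 1-like class, Cfap43 fell under the 10% line, with its highest other class at 0.0816 of the ciliated-like level. With the 9 markers, an alternative chosen after seeing the data that removed 36 cells, the value was 0.226. As a mean of per-cell CPM, the highest other class was leukocyte-like (91 cells, 13 UMIs) at 0.229 of the ciliated-like level, in place of alveolar type 1-like, so which class comes next depends on the averaging. Gsto1 and Gsto2 overlap Cfap43 on the opposite strand, and the strand setting of the counting is not given in the sources used here. Gsto1 was at 108 CPM in alveolar type 1-like cells, 475 CPM in club or secretory-like cells and 288 CPM in ciliated-like cells. Cfap43 in the same classes was at 51.3, 2.14 (5 UMIs) and 225 CPM. Levels of Gsto2 are not given here, and the part of either gene in the Cfap43 counts was not tested.

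Cfap57 and Tekt2 had mesothelial-like cells, the lining of the lung surface, as their next class. Cfap57 (chromosome 4, 118554551 to 118620777, minus strand), required in algae for a subset of inner arms, had 28 UMIs in 24 of 208 mesothelial-like cells (15.1 CPM, 10.0 to 21.8), against 361 UMIs in 172 of 238 ciliated-like cells (108 CPM, 97.2 to 120), 13.98% of that level (9.16 to 20.5%). Everywhere else there were 6 UMIs, with none in either fibroblast class of 3126 and 2326 cells, so that the mesothelial-like level was 179-fold that of the remaining cells outside the ciliated-like class (72.6 to 528). Tekt2 (chromosome 4, 126322121 to 126325688, minus strand) had 48 UMIs in 42 mesothelial-like cells (25.9 CPM, 19.1 to 34.3), against 639 UMIs in ciliated-like cells (191 CPM, 177 to 207), 13.5% of that level (9.88 to 18.2%). Its mesothelial-like level was 13.7-fold that of the remaining cells outside the ciliated-like class (9.65 to 19.2). Alveolar fibroblast-like cells followed at 4.47 CPM (66 UMIs, 3.46 to 5.69), and alveolar type 2-like cells had 0.249 CPM (4 UMIs). Of 208 mesothelial-like cells, 18 had a UMI of the 9 ciliated markers, and these made up 4 of the 24 cells with Cfap57 and 7 of the 42 with Tekt2. After thinning, 1.94% of mesothelial-like cells had a Cfap57 UMI (4 of 206), against 21.5% of ciliated-like cells, and 5.34% had a Tekt2 UMI (11 of 206), against 32.1%.

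**Figure D4:**
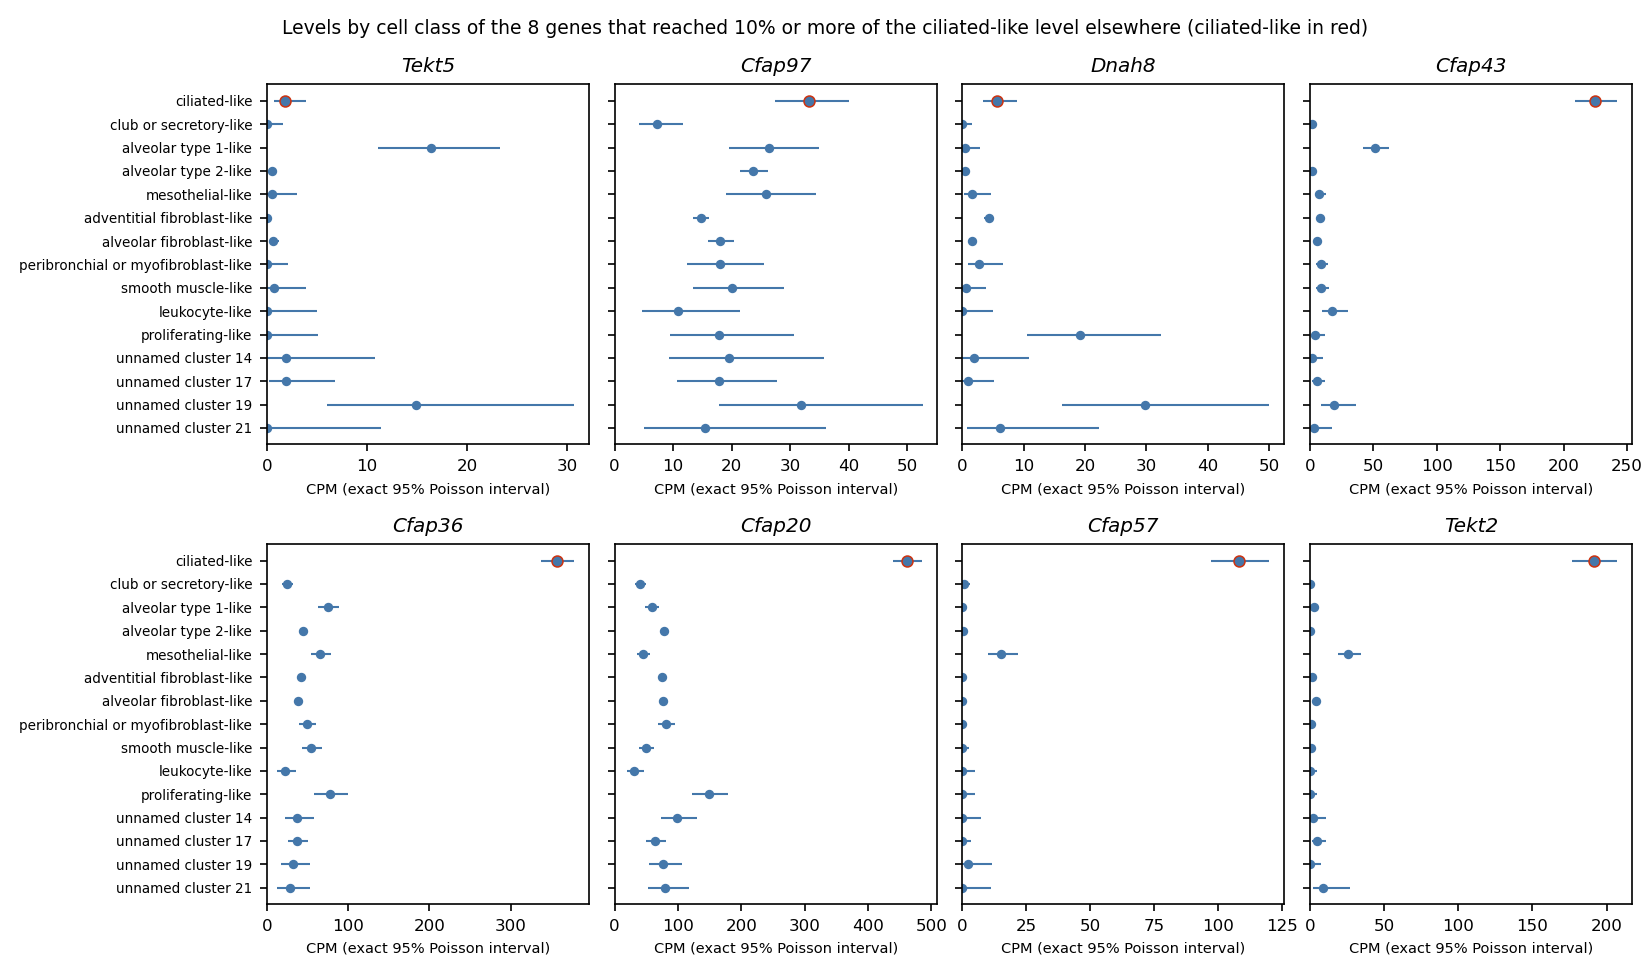
CPM of UMIs summed over each class (x axis, own scale in each panel) for the 8 genes that reached at least 10% of their ciliated-like level in another class, with exact 95% Poisson intervals and the ciliated-like class in red. Tekt5 peaks in alveolar type 1-like cells and cluster 19, Dnah8 in cluster 19 and proliferating-like cells, Cfap97 is spread over all classes, and the other 5 peak in ciliated-like cells with a lower second class.

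Dnah2os, the antisense RNA that overlaps Dnah2 (chromosome 11, 69448548 to 69453676, plus strand), had 19 UMIs and was under the minimum. Of these, 15 were in 15 adventitial fibroblast-like cells, 3 in cluster 19 and 1 in a proliferating-like cell, with none in ciliated-like cells. Dnah2 itself had 120 UMIs in ciliated-like cells and 1 in adventitial fibroblast-like cells, so most UMIs of the pair lay in different classes. The 0 Dnah2os UMIs in ciliated-like cells allow up to 1.10 CPM, above its adventitial level of 0.520 CPM. Whether Dnah2os is lower in ciliated-like cells therefore cannot be told.

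The promoters of the axoneme genes were searched for letters bound by the factors of motile ciliogenesis, since most of these genes were high in the same cells. RFX factors bind the X-box, and Foxj1 is a forkhead factor. Windows of 300 bases, from 250 before to 50 after the start, were given by RefSeq (GRCm38.p6) for 45 of the 56 genes, 52 windows in all, and both strands were searched. The X-box half-site GTTGCC was in 32.7% of the 52 windows, against 12.5% of all 32851 windows in the table. It was in 35.0% of the 40 windows of restricted genes, in 3 of 7 windows of intermediate genes and in neither window of the genes not confined. Some windows are alternative starts of the same gene that overlap. The 9 letters GTTGCCATG, which contain the half-site, were in 3 windows (5.77%, against 0.773% of all windows), 1 of Cfap161 and 2 overlapping ones of Cfap74, and the forkhead core GTAAACA in 4 (7.69%, against 3.65%). The forkhead core was in 1 of the 40 windows of restricted genes (2.5%), in 2 of 7 windows of intermediate genes and in neither window of the genes not confined. A match describes letters only and is no evidence of binding. The windows below show the measured Cfap gene with the highest ratio (Cfap161, chr7:83794790-83795089, minus strand), a restricted gene with fibroblast UMIs (Cfap74, chr4:155408940-155409239, plus strand), an intermediate gene (Tekt2, chr4:126325639-126325938, minus strand) and both genes not confined that have a window (Tekt5, chr16:10395406-10395705, minus strand, and Dnah8, chr17:30626686-30626985, plus strand). Each reads 5′ to 3′ along the gene, with matches to the half-site or the longer X-box on either strand in capitals.
Cfap161: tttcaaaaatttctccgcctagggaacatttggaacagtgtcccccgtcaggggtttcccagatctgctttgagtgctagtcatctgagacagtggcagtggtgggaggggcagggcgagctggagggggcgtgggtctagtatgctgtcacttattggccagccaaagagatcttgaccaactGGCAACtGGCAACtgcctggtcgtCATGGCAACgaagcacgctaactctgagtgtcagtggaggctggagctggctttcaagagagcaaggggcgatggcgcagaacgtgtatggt
Cfap74: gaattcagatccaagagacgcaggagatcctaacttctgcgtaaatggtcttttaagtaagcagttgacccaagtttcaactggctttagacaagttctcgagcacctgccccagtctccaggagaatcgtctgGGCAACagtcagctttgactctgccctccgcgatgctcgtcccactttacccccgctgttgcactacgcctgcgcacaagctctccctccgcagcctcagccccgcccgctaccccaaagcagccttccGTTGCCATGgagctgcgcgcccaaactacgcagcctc
Tekt2: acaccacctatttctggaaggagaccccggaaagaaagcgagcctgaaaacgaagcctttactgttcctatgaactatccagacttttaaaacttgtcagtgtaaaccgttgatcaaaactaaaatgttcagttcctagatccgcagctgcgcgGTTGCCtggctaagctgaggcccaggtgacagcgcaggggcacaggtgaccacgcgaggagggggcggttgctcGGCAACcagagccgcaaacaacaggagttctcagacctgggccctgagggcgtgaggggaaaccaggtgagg
Tekt5: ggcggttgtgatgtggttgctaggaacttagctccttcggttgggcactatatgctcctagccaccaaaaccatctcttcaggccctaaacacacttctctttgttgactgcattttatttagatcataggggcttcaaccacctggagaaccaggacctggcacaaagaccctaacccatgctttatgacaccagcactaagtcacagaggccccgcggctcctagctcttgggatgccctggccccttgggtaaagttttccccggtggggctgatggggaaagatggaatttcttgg
Dnah8: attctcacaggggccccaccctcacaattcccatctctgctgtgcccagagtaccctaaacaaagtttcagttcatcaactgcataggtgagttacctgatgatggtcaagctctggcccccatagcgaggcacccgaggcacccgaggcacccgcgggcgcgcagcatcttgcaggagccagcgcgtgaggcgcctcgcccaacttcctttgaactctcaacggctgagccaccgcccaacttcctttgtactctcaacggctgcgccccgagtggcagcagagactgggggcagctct

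The Cfap161 window holds 3 half-sites, 1 of them within the 9-letter X-box, the Cfap74 window 2, 1 of them within the 9-letter X-box, and the Tekt2 window 2. The Tekt5 and Dnah8 windows hold none of these letters, which says nothing of the factors themselves.

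Other genes of cilia, 85 in 8 lists, were counted in the same way. Of 80 measured, 71 were at least 2-fold higher in ciliated-like cells (20.5% of all measured features), 53 at least 10-fold (5.79%) and 2 at or below 0.5-fold (30.2%). Their median ratio was 16.9, and 40 were restricted (4.38% of all measured features), 25 intermediate (5.82%) and 15 not confined (89.8%). Foxj1, Hydin and Dynlrb2 among them also served to name the class. Unlike the axoneme genes, the genes of these lists could enter the clustering. Their counts are therefore partly set by how the class was formed, and the shares of all features are no independent background. Lists of axoneme parts and their assembly were mostly restricted. The nexin-dynein regulatory complex, the link between doublets, had 8 of 10 restricted and 2 intermediate (median ratio 663), with Tcte1 (188 ciliated-like UMIs and none elsewhere) and Drc1 (ratio 1892) highest and Fbxl13 (7.07) lowest. Outer arm docking and ruler proteins had 6 of 6 restricted (median 550), from Armc4 (2932) and Ccdc151 (1129) to Ccdc114 (57.4). Central pair proteins had 7 of 8 restricted (median 1077), with Spag17 (2245) and Spag16 (1436) highest. The exception was Stk36, a kinase of the central pair, at 17.5 CPM in alveolar type 1-like cells (33 UMIs) against 34.1 CPM in ciliated-like cells. Dynein assembly factors, which preassemble the arms in the cytoplasm, had 9 of 12 restricted and 3 intermediate (median 60.0), from Lrrc6 (1940) and Dnaaf1 (1471) to Ruvbl1 (5.11).

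Lists that include genes shared with primary cilia or cytoplasmic transport held more intermediate genes and genes not confined. Intraflagellar transport genes had 3 of 17 restricted, 10 intermediate and 4 not confined (median 8.94), with Ift88 (23.5) and Ift172 (17.4) highest and Ift20 (2.17) lowest. Dynein light and cytoplasmic chains had 1 of 13 restricted, 5 intermediate and 7 not confined (median 3.12), with Dynlrb2 (181) and Dync2h1 (13.8) highest and Dync1li1 (0.830) lowest. The transcription factors of multiciliated cells had 3 of 6 restricted (median 304), with Trp73 (1798) and Foxj1 (748) highest and E2f4 (0.840) lowest. Tubulins and their modifiers had 3 of 8 restricted (median 13.99), with the glutamylase genes Ttll6 (3466, 1 UMI elsewhere) and Ttll9 (3248, 1 UMI elsewhere) highest. The lowest was Tubb4a, with 0 UMIs in ciliated-like cells and 919 elsewhere.

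The authors' deposited table of 17 clusters was read for the same genes, and since it rests on the same library it is no independent sample. It lists 55 of the 56 genes, and 50 of these had their highest mean count in cluster 13, where Foxj1 was also highest (3.87). The exceptions were Tekt5, Cfap97, Dnah8, Dnah2os and Dnah17. The share of all listed genes with their highest mean count in cluster 13 is not given, so 50 of 55 has no background here. In the authors' deposited table Tekt5 had a mean count of 0.110 in cluster 16, led by the alveolar type 1 genes Rtkn2 and Igfbp2, against 0.0110 in cluster 13. Dnah8 had 0.0794 in cluster 9, against 0.0496 in cluster 13 of the authors' deposited table. That cluster 9 was led by Gm26917, Fam71a, Myom1, Gm16486 and Il1b, and no cell type is given for it here. For Cfap43 the next cluster in the authors' deposited table was again 16 (0.357, against 1.78 in cluster 13). For Cfap57 (0.105, against 0.842), Tekt2 (0.174, against 1.44) and Rsph9 (0.288, against 3.32) it was cluster 15, led by mesothelial genes such as Upk3b and Msln, in the authors' deposited table.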

How the data were processed

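Single-cell 3′ RNA libraries of sorted lung cells from 4 identically labelled samples were deposited by the authors as 1 matrix of UMI counts. Per the submitters' processing notes it was made with Cell Ranger 3.0.0 on build mm10. No annotation release is stated. The authors' deposited cluster table holds, per the file headers, a mean count per cell for each cluster, whose scaling is not stated, and a log2 fold change whose comparison set is not stated.

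Of 11118 barcodes, 9391 passed a minimum of 500 genes and a mitochondrial share of no more than 10%. Scrublet (expected rate 0.08) called 458 doublets (4.88%), which were removed. The axoneme, mitochondrial, ribosomal and reporter genes were left out of the choice of 2000 variable genes. Clusters came from 30 principal components, 15 neighbours and Leiden clustering at resolution 1 (scanpy 1.11.5, leidenalg 0.10.2, scipy 1.17.1, Python 3.11.15). A cluster took the name of the list with the highest mean z-score among 18 marker lists if at least 3 of its markers had a UMI in 25% of cells, and was left unnamed if another type's genes were its leading genes. The rule on cardiac muscle genes, which left 1 cluster unnamed, was added after the data were examined. UMIs were summed per class as CPM with exact Poisson intervals. Ratios have exact conditional binomial intervals and shares Clopper-Pearson intervals; the computation was tested on simulated data. UMIs are counted molecules, but cells of 1 library share its errors, so intervals and floors cover counting error only. Different genes were not ranked by level, since gene length was not taken into account.

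The axoneme genes, the gene lists and the tests were chosen with earlier results of these data known. The text names every gene not confined or intermediate, the 3 genes of each role with most ciliated-like UMIs, genes under 30 UMIs, and in each other list the 2 highest ratios and the lowest. Other named genes (Dnah1, Dnah2, Cfap69, Cfap74, Cfap99, Cfap161, Rsph1 in proliferating-like cells, Stk36) were chosen after their values were seen. Alternatives changed the UMI minimum, the averaging, the cells kept, the resolution, the genes clustered and the set of UMIs used.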

Additional observations from a re-analysis of the deposited data

How the results depend on the processing

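The counts kept within 1.5 times their values under all 11 alternatives. Genes at least 2-fold higher in ciliated-like cells numbered 46 to 51 (50 as reported), restricted genes 40 to 44 (43), genes not confined 2 to 4 (3) and other cilia genes at least 2-fold higher 70 to 72 (71), with 223 to 293 ciliated-like cells. Of the values of single genes, 129 stayed within their counting interval and 13 moved, and Dnah8 went to the other side of its ciliated-like level, though its reported interval (0.464 to 1.30) lies on both sides. Cfap97 and Dnah8 were not confined in each setting. Tekt5 was, except at a UMI minimum of 100, with clusters and values from separate sets of UMIs, where it had too few UMIs, and where cells with at least 2 UMIs of the 12 ciliated markers were left out. That last setting removed 1169 cells, most of the alveolar type 1-like class among them because Sec14l3 is on the list, and gave Cfap43 a value of 0.0816, under the 10% line. With 9 markers, an alternative chosen after seeing the data, 36 cells were removed and the 3 genes were again Cfap97, Dnah8 and Tekt5. The highest level of Dnah8 in another class over its ciliated-like level, 0.756 as reported, was 2.85 at resolution 2.0 and 3.14 with doublets kept, when the proliferating-like class passed 50 cells, and 5.70 with the looser filter (200 genes, 20% mitochondrial), when an endothelial-like class did. With doublets kept, Cfap20 and Rsph1 were at 0.330 and 0.0378 in proliferating-like cells, against 0.175 and 0.00598 as reported. At resolution 2.0 Rsph1 and Cfap126 reached 0.0577 and 0.0511 in club or secretory-like cells; the cause was not tested. A UMI minimum of 10 added Dnah2os to the genes not confined. No paired analysis was possible because the matrix holds 1 pooled sample.

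Depth limits genes under about 30 UMIs, and a class of 41 cells can show only large differences.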
